A study of Mus musculus with 15 samples.

Results

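Slco5a1 and 4 of its relatives in the organic anion transporter family, Slco2a1, Slco2b1, Slco3a1 and Slco4a1, were followed across 15 RNA-seq libraries of cultured mouse kidney cells. These 5 genes are among 15 Slco symbols in a count table of 24421 genes. Slco5a1 was chosen because its counts were much lower in knockout than in wild-type libraries of males and of females, so its knockout effect is described here without a test. The relatives were chosen by family name and are tested. The cells were primary proximal tubule cells from kidneys of C57BL/6 mice, grown through a single passage. Both sexes were studied, with WT mice (4 libraries from males, 4 from females) and mice that lacked Diet1, here KO (3 libraries from males, 4 from females). No treatment, time point or age is given in the labels. In every group the cells of 3 to 4 mice had been mixed before the mixture was split into technical replicates, so each group is 1 pool and p-values cover the spread between libraries of a pool, not between mice. Diet1 has the current symbol Malrd1, a gene not analysed here, and the KO label could not be checked on it.

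Slco genes encode OATP proteins, membrane carriers that take up bulky organic anions such as bile acids, steroid conjugates, thyroid hormones, prostaglandins and many drugs without direct use of ATP. Members differ in substrate and tissue. Slco2a1 is the prostaglandin transporter, which clears prostaglandins from outside the cell so that they can be oxidised. Slco2b1 carries steroid sulfates and drugs, and Slco3a1 and Slco4a1 carry prostaglandins and thyroid hormones. The substrates of Slco5a1 are poorly known. In the intact kidney, proximal tubule cells take up organic anions from blood mainly through carriers of another family, Slc22a6 and Slc22a8, and the family member best known there is Slco4c1.

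Most OATP proteins carry a conserved signature at the border of an extracellular loop and a membrane span. It includes a glycine, alanine, tryptophan, tryptophan run, and the coding bases of that region are shown because Slco5a1 departs from its relatives there. The block searched for, on the coding strand and in frame, was a glycine codon (GGN, where N is any base), then any codon, then the tryptophan codon TGG repeated once, which leaves the second codon free. Of 14 Slco genes with a coding transcript in GENCODE M21 (GRCm38), 12 held it, each at 1 place, and Slco6c1 and Slco6d1 did not. The second codon began with GC, which codes for alanine whatever the third base, in 11 of the 12. In Slco5a1 it was AAC, an asparagine codon, and in the 4 relatives GCC. Counted from 1 at the first base of the block, with the relative's base first, Slco2a1 and Slco3a1 differ from Slco5a1 by G4A and C5A, and Slco2b1 and Slco4a1 by T3A, G4A and C5A. The block alone is no rare string, since in any frame it was found somewhere in the longest protein-coding transcript, UTRs included, of 13.1% of 21901 genes. Each line gives 99 coding bases, 5′ to 3′, with the 12-base block in capitals.
Slco5a1: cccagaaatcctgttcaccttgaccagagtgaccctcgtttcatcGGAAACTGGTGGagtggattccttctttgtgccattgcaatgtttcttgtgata
Slco2a1: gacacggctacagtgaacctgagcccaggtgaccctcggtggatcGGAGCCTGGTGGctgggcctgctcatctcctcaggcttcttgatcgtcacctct
Slco2b1: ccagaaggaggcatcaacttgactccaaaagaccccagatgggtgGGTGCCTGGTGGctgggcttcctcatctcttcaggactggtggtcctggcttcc
Slco3a1: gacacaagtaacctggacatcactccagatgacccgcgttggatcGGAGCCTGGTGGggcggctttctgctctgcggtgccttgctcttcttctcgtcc
Slco4a1: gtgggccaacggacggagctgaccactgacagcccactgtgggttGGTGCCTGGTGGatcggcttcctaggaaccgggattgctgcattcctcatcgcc

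In Slco5a1 the block is split by an intron, with 8 bases in exon 2 (chr1:12943980-12943987, minus strand) and 4 in exon 3 (chr1:12939197-12939200). In the relatives it lies within a single exon: exon 6 of Slco2a1 (chr9:103070266-103070277, plus strand), exon 7 of Slco2b1 (chr7:99682836-99682847, minus), exon 4 of Slco3a1 (chr7:74346862-74346873, minus) and exon 4 of Slco4a1 (chr2:180467092-180467103, plus). The coding sequence of Slco5a1 was the longest of the 5, at 2550 bases without the stop codon, against 1929 for Slco2a1 and 2169 for Slco4a1. Over the 10 pairs of members, identity of aligned coding bases ran from 62.8% for Slco3a1 with Slco4a1 to 67.0% for Slco2a1 with Slco2b1. Slco5a1 was 63.7 to 65.0% identical to the others. The longest stretch that any Slco5a1 transcript shared exactly with a transcript of another Slco gene was 24 bases. Slco5a1 itself lies at chr1:12866549-12992650 and no annotated gene overlaps it.

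Library totals were 17648416 to 30896637 counts, at which 3 counts correspond to 0.0971 to 0.170 CPM (a gene's counts per 1e+06 library counts, with TMM factors that correct for a few abundant genes taking up counts). Libraries of a group correlated at 0.993 or more over log2 CPM, and the highest value between groups was 0.991. The proximal tubule markers were only partly present. The endocytic receptors Lrp2 and Cubn and the brush border enzyme Ggt1 were measured in every library, with group means of 12.1 to 20.9, 5.95 to 6.93 and 35.5 to 68.7 CPM. The phosphate carrier Slc34a1 had at most 3 counts in any library, and the organic anion carriers Slc22a6 and Slc22a8 at most 1. The transcription factor Hnf4a had group means of 0.794 to 1.11 CPM.

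The Slco family in these cells was mostly Slco2a1, Slco3a1 and Slco4a1. Per kilobase of exon, the order among the 5 listed genes was Slco2a1, Slco3a1, Slco4a1, Slco5a1 and Slco2b1, from the highest down, in each of the 4 groups. Slco1a5 and Slco1b2, which are not among the 5, lay between Slco5a1 and Slco2b1 by their means. In KO of both sexes the libraries of Slco1a5 and of Slco1b2 overlapped those of Slco5a1. In male WT the levels of the 5 were 21.9 ± 0.919, 8.14 ± 0.244, 4.85 ± 0.340, 0.916 ± 0.129 and 0.0354 ± 0.0183 CPM per kilobase (SD, n = 4). Neighbours in the order of the 5 did not overlap between their libraries in any group. The order held when the longest transcript replaced the union of exons as length. Slco4a1 stood 5.29-fold above Slco5a1 in male WT and 22.1-fold above it in male KO. The corresponding ratios in females were 8.54 in WT and 15.7 in KO. These ratios contain the Slco5a1 values that chose the gene and are a description.

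**Figure D1:**
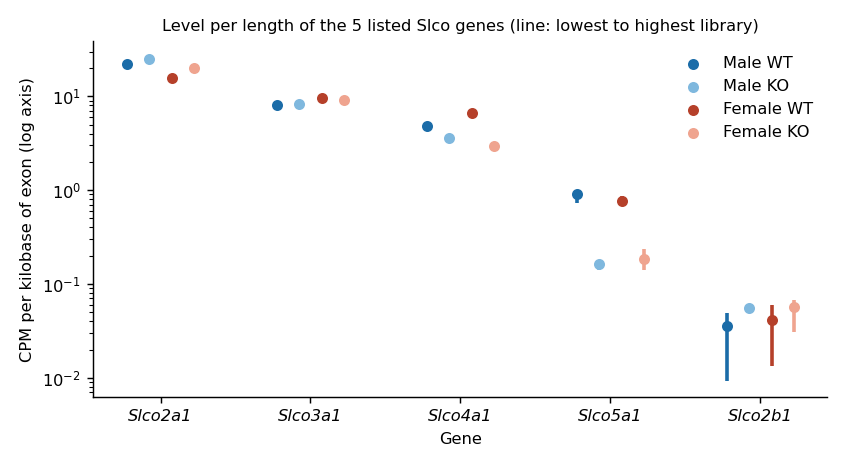
Level of the 5 listed genes in CPM per kilobase of exon (log axis), by group; points are group means and lines run from the lowest to the highest library. The order from Slco2a1 down to Slco2b1 is the same in each group, and Slco5a1 drops from 0.916 and 0.774 in WT to 0.161 and 0.186 in KO (males, then females).

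The 10 other Slco genes were rare or absent. Slco1b2 and Slco1a5 had at most 21 counts in a library and passed the filter on low counts. Slco1a1, Slco1a4, Slco1a6, Slco1c1 and Slco4c1 had at most 9 and did not pass. Slco4c1, the kidney carrier, had 3 counts in all 15 libraries together. Slco6b1, Slco6c1 and Slco6d1 had no count. Of the 5 listed members, 4 passed the filter and Slco2b1 did not.

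Slco5a1 was at a fraction of its wild-type level in KO libraries of both sexes. In male WT its level was 9.51, 12.7, 13.2 and 12.8 CPM in replicates 1 to 4 (229 to 326 counts), and in male KO 2.32, 1.87 and 2.17 CPM (36 to 47 counts). In female WT it was 11.4, 10.6, 9.81 and 8.88 CPM, and in female KO 2.40, 1.85, 2.45 and 3.10 CPM (37 to 69 counts). The lowest WT library, female WT replicate 4, was above the highest KO library, female KO replicate 4. The log2 difference, KO minus WT, was -2.48 ± 0.15 (standard error) in males and -2.03 ± 0.14 in females, given without a test because these contrasts chose the gene. Ordered by log2 fold change among 13912 genes tested, it stood in place 1 from the lowest in males and place 18 in females. The female difference minus the male one was 0.45 ± 0.22, with a 95% interval of -0.01 to 0.90.

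**Figure D2:**
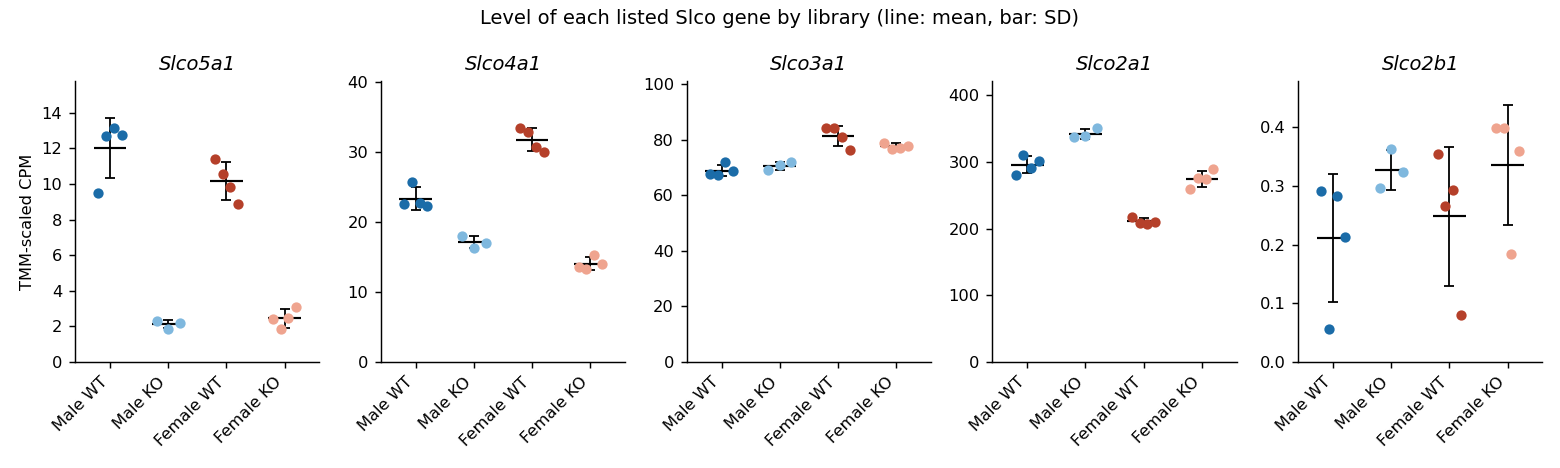
TMM-scaled CPM of each listed gene in every library, by group, with the mean (line) and SD (bar); each panel has its own axis from 0. Slco5a1 and Slco4a1 are lower in KO than in WT in both sexes, Slco2a1 is higher, Slco3a1 overlaps, and Slco2b1 stays below 0.4 CPM.

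For Slco5a1 no difference between the sexes passed the test, which shares its libraries with the comparisons that chose the gene. Female WT was lower than male WT by a log2 difference of -0.23 ± 0.10 (quasi-likelihood test of edgeR, adjusted p = 0.0851 by Benjamini-Hochberg over all genes, 95% interval -0.44 to -0.03), and the libraries overlapped. Female KO minus male KO was 0.21 ± 0.20 (edgeR adjusted p = 0.628, interval -0.19 to 0.62). The WT value turned on 1 library: without male WT replicate 1, the lowest of its group, it was -0.35 ± 0.095 (edgeR adjusted p = 0.00488, range over all alternatives 0.00488 to 0.278).

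Of the 3 relatives with enough counts, 1 rose in KO, 1 fell and 1 did not pass, in each sex. Across all genes tested 20.2% were called in males and 39.3% in females (edgeR adjusted p below 0.05), and WT and KO libraries did not overlap for 27.7% and 36.1%, so 2 of 3 is a count to be read against a high background.

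Slco4a1 (chr2:180456245-180474867) fell in both sexes. In male WT it measured 22.6, 25.7, 22.6 and 22.2 CPM and in male KO 18.0, 16.3 and 17.0 CPM. In female WT it measured 33.4, 32.9, 30.7 and 29.9 CPM and in female KO 13.6, 13.3, 15.3 and 13.9 CPM. Every KO library was below every WT library of its sex. The log2 fold change was -0.44 ± 0.068 in males (edgeR adjusted p = 7.89e-06) and -1.17 ± 0.062 in females (edgeR adjusted p = 1.10e-16), against 10.1% and 18.6% of all genes called lower. The fall was larger in females by -0.73 ± 0.093 on the log2 scale (edgeR test of the difference, adjusted p = 3.81e-07), where 15.6% of all genes were called, 9.76% higher and 5.89% lower. With library size as the only scaling the share of higher calls in that comparison was 46.2%, against 62.4% here, and in the female KO comparison 39.9% against 52.7%.

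The sexes were ordered differently for Slco4a1 in the 2 genotypes. In WT, female libraries were above male ones by 0.45 ± 0.057 (edgeR adjusted p = 1.39e-07). In KO they were below by -0.28 ± 0.073 (edgeR adjusted p = 0.00882, range over alternatives 0.00373 to 0.0730). That second call was lost without male KO replicate 1, where the value was -0.25 ± 0.083 (edgeR adjusted p = 0.0730). In WT 28.6% of all genes were called between the sexes, 12.6% higher and 16% lower in females. In KO 9.2% were called, 4.94% higher and 4.26% lower. The share of higher calls in WT was 44.1%, and 55.2% with library size as the only scaling.

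Slco2a1 (chr9:102988712-103096002), the prostaglandin transporter and the member with the most counts, rose in KO of both sexes. It measured 281, 310, 292 and 302 CPM in male WT and 338, 339 and 351 CPM in male KO. In female WT it measured 218, 209, 207 and 211 CPM and in female KO 260, 276, 275 and 289 CPM. The KO libraries of each sex were all above its WT libraries. The log2 fold change was 0.21 ± 0.033 in males (edgeR adjusted p = 9.60e-06) and 0.38 ± 0.032 in females (edgeR adjusted p = 6.52e-12), where 10.1% and 20.7% of all genes were called higher. The rise was larger in females by 0.17 ± 0.046 (edgeR adjusted p = 0.00840, range over alternatives 0.00107 to 0.0453). In folds the Slco2a1 rises were 1.16 in males and 1.30 in females. The male one was below and the female one near the male Slco4a1 fold of 1.35. Both were small beside the female Slco4a1 fold of 2.25 and the Slco5a1 differences.

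Slco2a1 was also lower in females than in males in both genotypes, by -0.49 ± 0.032 in WT (edgeR adjusted p = 2.47e-14) and -0.32 ± 0.034 in KO (edgeR adjusted p = 1.49e-08), with no overlap between the sexes. Libraries did not overlap between the sexes for 27.5% of all genes in WT and 19.2% in KO.

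Slco3a1 (chr7:74275419-74554780) was not called for KO in either sex. It measured 67.9, 67.2, 71.9 and 68.9 CPM in male WT and 69.3, 70.9 and 72.1 CPM in male KO, which overlap. Female WT was at 84.2, 84.3, 80.9 and 76.4 CPM and female KO at 79.0, 76.7, 77.1 and 77.9 CPM, inside the WT range. The log2 fold change was 0.04 ± 0.039 in males (edgeR adjusted p = 0.584, 95% interval -0.04 to 0.12) and -0.07 ± 0.036 in females (edgeR adjusted p = 0.143, interval -0.14 to 0.01). The female value passed without female WT replicate 4, the lowest of its group (-0.10 ± 0.037, edgeR adjusted p = 0.0354), and ranged in adjusted p from 0.0193 to 0.337 over the alternatives. The KO effect did not pass as a difference between sexes (-0.10 ± 0.053, edgeR adjusted p = 0.213).

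Slco3a1 was higher in females, by 0.24 ± 0.036 in WT (edgeR adjusted p = 3.17e-06) and 0.13 ± 0.039 in KO (edgeR adjusted p = 0.0238). The KO call was lost without male KO replicate 1 (edgeR adjusted p = 0.150), male KO replicate 2 (0.0731), female KO replicate 1 (0.0597) or female KO replicate 4 (0.0521). Its values in those fits were 0.12, 0.14, 0.12 and 0.13 on the log2 scale.

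Slco2b1 (chr7:99657804-99711340) had 9, 1, 7 and 4 counts in WT males and 6, 7 and 7 in KO males. Its counts were 7, 5, 6 and 2 in WT females and 7, 8, 4 and 8 in KO females. In counts KO and WT overlapped in both sexes. In CPM the male KO libraries (0.296 to 0.364) lay just above the male WT ones (0.0555 to 0.291), and the female libraries overlapped. Male WT and KO libraries did not overlap for 27.7% of all genes tested. With so few counts Slco2b1 itself was not tested. The low-count relatives Slco1b2 and Slco1a5 were not called for KO in either sex. Slco1b2 had log2 fold changes of 0.14 ± 0.33 and 0.36 ± 0.29 (edgeR adjusted p = 0.823 and 0.338), and Slco1a5 of -0.55 ± 0.38 and -0.25 ± 0.33 (edgeR adjusted p = 0.344 and 0.589), in males and females.

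**Figure D3:**
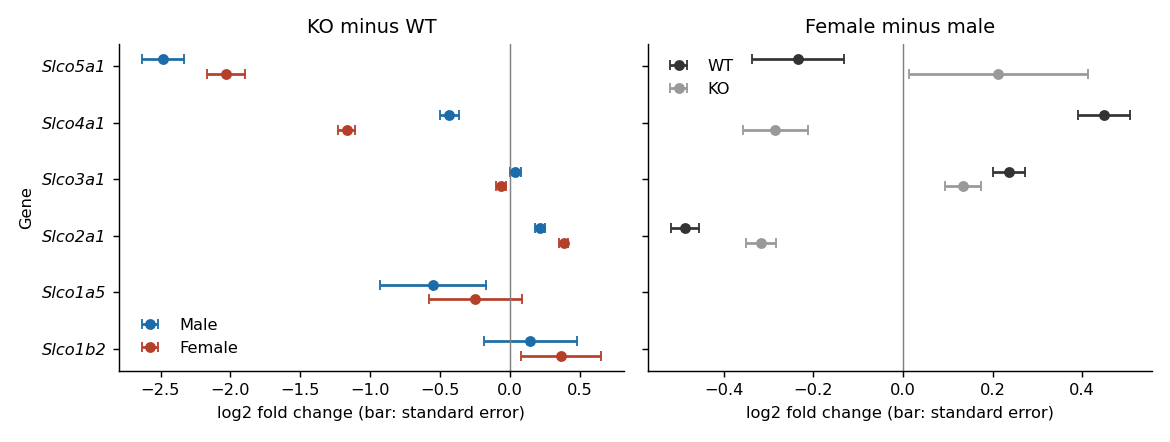
Log2 fold changes of the tested Slco genes with standard errors, KO minus WT at the left (males and females) and female minus male at the right (WT and KO; the 4 listed genes). Slco5a1 and Slco4a1 lie left of 0 in both sexes, Slco2a1 right of 0, and the bars of Slco1a5 and Slco1b2 are several times as wide.

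The make-up of the family's transcripts shifted with these changes. Summed over the 15 symbols, Slco counts in males came to 402 ± 14.4 CPM with WT and 435 ± 8.36 with KO, and in females to 336 ± 9.63 and 371 ± 11.7 (SD, n = 4, 3, 4 and 4 libraries). Slco2a1 made up 73.6% of this sum in male WT and 78.9% in male KO, and 62.8% and 74.0% in females. Slco4a1 went from 5.78% to 3.94% in males and from 9.42% to 3.78% in females. Slco5a1 went from 2.98% to 0.488% and from 3.02% to 0.658%. These shares are of CPM and carry no correction for transcript length.

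The coding genes next to Slco5a1 on chromosome 1 had mixed patterns. The closest is Sulf1, which encodes an enzyme that removes sulfate from heparan sulfate chains and lies 5357 bases away on the other strand (chr1:12692277-12861192). Sulf1 fell in male KO from 259 ± 4.48 to 175 ± 12.1 CPM, by -0.57 ± 0.044 on the log2 scale (edgeR adjusted p = 3.96e-10). In females it was at 172 ± 5.99 and 168 ± 10.5 CPM (-0.03 ± 0.041, edgeR adjusted p = 0.544), and the sexes differed by 0.54 ± 0.060 (edgeR adjusted p = 3.92e-07). Prex2, an exchange factor for Rac GTPases, lies further along on the same side, 1562868 bases from Slco5a1. It fell by 0.43 ± 0.13 on the log2 scale in males and by 0.34 ± 0.12 in females (edgeR adjusted p = 0.0162 and 0.0262). Its call was lost without male WT replicate 3 (0.0629) or male KO replicate 2 (0.164) in males, and without female WT replicate 1 (0.0510), female WT replicate 3 (0.0598), female KO replicate 1 (0.0924) or female KO replicate 3 (0.0627) in females.

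On the other side, the nuclear receptor coactivator gene Ncoa2 and Tram1, a component of protein translocation into the endoplasmic reticulum, had log2 fold changes between -0.02 and 0.01 in the 2 sexes. Neither was called (edgeR adjusted p = 0.804 or more). They lie 146455 and 572048 bases from Slco5a1. A830018L16Rik and Prdm14 had at most 9 and 1 counts and were not tested. Thus 2 of 4 tested neighbours were called lower in male KO and 1 of 4 in female KO, where 10.1% and 18.6% of all genes were.

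**Figure D4:**
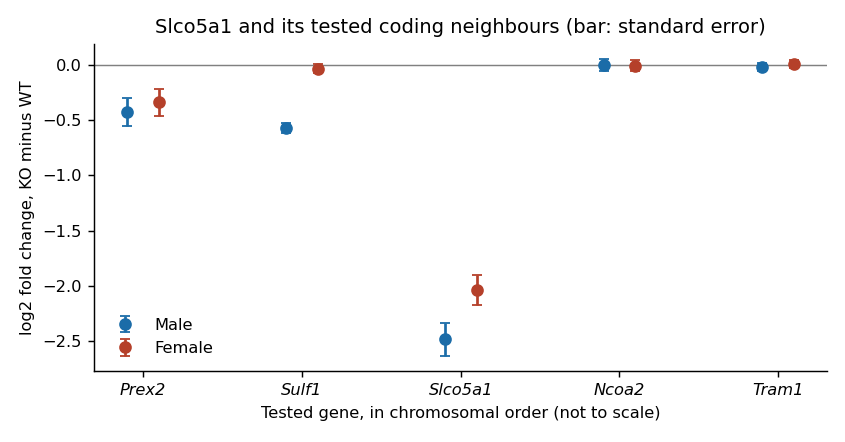
KO minus WT on the log2 scale, with standard errors, for Slco5a1 and the 4 tested genes among the 3 coding genes on each side, in chromosomal order (not to scale). Slco5a1 lies below -2 in both sexes, Sulf1 lies at -0.57 in males and -0.03 in females, and Ncoa2 and Tram1 lie at 0.

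Genes with a pattern like that of Slco5a1 were looked for among 12042 tested genes with at least 1 CPM on average. The measure was the root mean square difference of log2 CPM over the 15 libraries after each gene was centred on its own mean. The closest were Dcx, a microtubule protein of young neurons (0.400), Thbs2, a matricellular thrombospondin (0.457), Sox17, an endothelial transcription factor (0.563), Mfap5, a microfibril protein (0.570), and Cldn8, a claudin of the distal nephron (0.576). The median over the genes compared was 1.15, Slco4a1 was at 0.791, Slco3a1 at 1.15 and Slco2a1 at 1.29. All share libraries and scaling, and the 5 genes were chosen for this likeness, so their levels are a description.

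Dcx had 24 to 66 counts in WT males against 8 to 16 in KO males, and 42 to 65 in WT females against 7 to 15 in KO females. Thbs2 had 49.3 ± 2.89 CPM in WT males and 17.6 ± 1.21 in KO males, and 49.2 ± 3.52 in WT females and 19.4 ± 2.05 in KO females. In both genes every KO library was below every WT library of its sex. Cldn8 had log2 differences of -1.20 ± 0.18 in males and -2.33 ± 0.15 in females. The female difference was also the larger for Dcx (-2.37 against -1.75) and Sox17 (-1.51 against -1.44). It was the smaller for Thbs2 (-1.34 against -1.49) and Mfap5 (-1.08 against -1.55). For Slco5a1 it was the smaller too, with an interval of the difference between sexes from -0.01 to 0.90. That interval was -1.58 to 0.35 for Dcx, -0.82 to 0.67 for Sox17 and -0.06 to 0.35 for Thbs2, each with ends of opposite sign. For Mfap5 it was 0.01 to 0.93 and for Cldn8 -1.65 to -0.60.

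Markers of other cell types moved in some of the same contrasts, and in bulk samples fewer cells of a type and less RNA per cell cannot be told apart. Of 10 endothelial markers, 9 were lower in male KO and 0 higher, and their levels summed to 109 to 122 CPM in WT males and 49.8 to 56.5 in KO males. In females 4 of 10 were higher and 0 lower, and the sum was 43.2 to 50.7 CPM in WT and 49.2 to 64.1 in KO. Called lower were 10.1% of all genes in males and 18.6% in females, and called higher 10.1% and 20.7%.

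Of 7 tested fibroblast markers 6 were lower in males, and 5 lower with 1 higher in females. Their sum was 3426 to 3662 CPM in WT males against 1786 to 1975 in KO males, and 3564 to 3839 against 2545 to 2774 in females. Of 7 smooth muscle and pericyte markers 6 were lower in males, and 2 were higher and 2 lower in females. Their sum was 3166 to 3491 against 2673 to 2752 CPM in males, and 3479 to 3529 against 3461 to 4026 in females, WT before KO. Collecting duct markers were rare, with sums of 4.96 to 6.55 against 4.57 to 5.69 CPM in males and 8.09 to 10.1 against 2.25 to 4.11 in females. Of these, Slc4a1 was at 0 throughout, and Scnn1b and Scnn1g, the 2 tested, were lower in female KO and not called in males.

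Of 8 leukocyte markers 4 were higher and 0 lower in each sex. Their sums were 21.6 to 25.8 against 32.0 to 34.8 CPM in males and 35.1 to 41.6 against 45.6 to 56.8 in females. Of 5 podocyte markers 1 was lower in males, and 3 were higher and 1 lower in females, with sums of 430 to 456 against 369 to 401 CPM and 289 to 300.3 against 299 to 336. Of 3 tested thick ascending limb and distal tubule markers, 0 were called in males and 1 was lower in females, with Pvalb at 0 throughout and sums of 1.22 to 1.86 against 0.691 to 1.16 CPM in males and 2.05 to 2.50 against 0.799 to 2.11 in females. Of 5 tested proximal tubule markers 2, Lrp2 and Ggt1, were lower in each sex. The list's sum was 76.4 to 79.7 against 61.0 to 62.1 CPM in males and 88.8 to 103 against 55.4 to 57.9 in females. Ggt1 alone averaged 68.7 CPM in female WT and 35.5 in female KO. The median log2 fold change of the 5 was -0.24 in males and 0.02 in females. The part of these cell types in the Slco values was not tested.

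**Figure D5:**
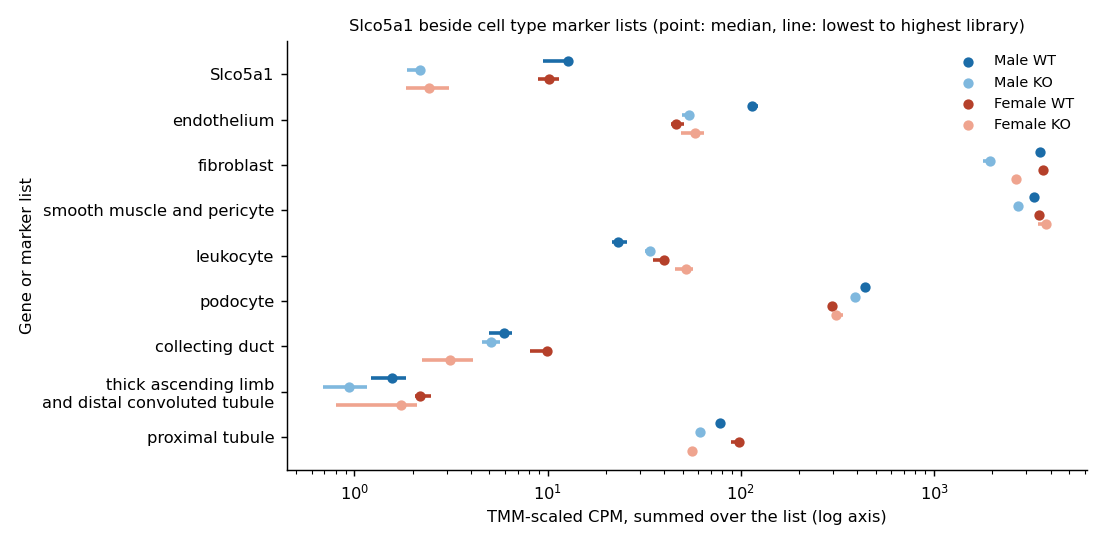
Slco5a1 (top row) beside 8 lists of cell type markers, in TMM-scaled CPM summed over each list (log axis); points are group medians and lines run from the lowest to the highest library. The fibroblast sum is lower in KO of both sexes, the leukocyte sum is higher in KO of both, and the endothelial sum is lower in KO in males alone.

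Genes that make, oxidise and sense prostaglandins were examined as the pathway of Slco2a1. Of 21 genes, 18 were tested; 0 were higher and 2 lower in male KO (median log2 fold change -0.17), and 3 were higher and 4 lower in female KO (0.04). The median over all genes tested was 0.0002 and 0.0001, and 20.2% and 39.3% of them were called in either direction, so the list's counts were not above the share of all genes. The cyclooxygenase Ptgs1 had 60.2 ± 2.69 CPM in WT males and 46.3 ± 0.970 in KO males, a fall of -0.38 ± 0.047 on the log2 scale (edgeR adjusted p = 1.39e-07). Pla2g4a, the phospholipase that frees arachidonic acid, fell by 0.36 ± 0.042 on the log2 scale (edgeR adjusted p = 5.34e-08). The inducible cyclooxygenase Ptgs2 had 128 ± 13.9 CPM in WT females and 246 ± 9.02 in KO females, a rise of 0.94 ± 0.084 (edgeR adjusted p = 1.89e-06).

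The dehydrogenase Hpgd, which inactivates prostaglandins brought in by Slco2a1, had 3 to 12 counts per library and was not called (edgeR adjusted p = 0.941 and 0.0652). The exporter gene Abcc4 was at 372 ± 42.7 and 379 ± 24.5 CPM in males and 295 ± 6.04 and 336 ± 33.9 CPM in females, WT before KO, and was not called. Pla2g4a also fell in females, from 49.0 ± 1.77 to 43.8 ± 1.34 CPM, by 0.16 ± 0.040 on the log2 scale (edgeR adjusted p = 0.00117). The other 5 calls of the list in females were each lost without at least 1 library. The synthase genes Ptgds and Ptges had 0.79 ± 0.25 and -0.27 ± 0.087, and lost their calls without female WT replicate 2 (edgeR adjusted p = 0.0520) and female WT replicate 1 (0.0502). The receptor genes Ptger2 and Ptgfr had -1.41 ± 0.56 and -1.08 ± 0.40. The call of Ptger2 was lost without female WT replicate 2 or 3 or female KO replicate 3 or 4 (0.0917 to 0.174), and that of Ptgfr without female WT replicate 1, 2 or 4 or female KO replicate 1 or 3 (0.0519 to 0.0967). Ptgs1 had 0.12 ± 0.047 (edgeR adjusted p = 0.0435), a call lost under each other scaling, test, filter or sample set tried except the replicate block, and without male WT replicate 4, male KO replicate 1 or 2, female WT replicate 1, 2 or 3 or female KO replicate 2 or 3 (0.0506 to 0.239).

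Genes of thyroid hormone transport and action were examined for Slco3a1 and Slco4a1. Of 16 genes, 12 were tested; 2 were higher and 2 lower in male KO (median -0.02), and 3 were higher and 5 lower in female KO (-0.12). The 4 and 8 calls stand beside 20.2% and 39.3% of all genes called. The amino acid and thyroid hormone carrier genes Slc7a5 and Slc3a2 rose by 0.23 ± 0.030 and 0.13 ± 0.032 in females (edgeR adjusted p = 1.84e-07 and 8.45e-04). Hr, a thyroid hormone receptor corepressor, rose by 0.63 ± 0.054 in females (edgeR adjusted p = 1.91e-11). The male rises of Hr (0.20 ± 0.056) and Slc7a5 (0.09 ± 0.033) were not stable over the alternatives. The Slc7a5 call was lost in the DESeq2 Wald test (adjusted p = 0.0577). It was also lost with upper quartile scaling, no filter, a filter of 5 CPM in 3 libraries, or only the groups compared (edgeR adjusted p = 0.0539 to 0.0780). That of Hr was lost without male KO replicate 2 (edgeR adjusted p = 0.0680) or 3 (0.0521), and that of Slc7a5 without male WT replicate 2, 3 or 4, male KO replicate 2 or 3 or female WT replicate 1 or 2 (0.0504 to 0.133). The receptor genes Thrb and Thra were called lower. Thrb, at -0.64 ± 0.21 in males and -0.55 ± 0.21 in females, lost its call without male WT replicate 4 or male KO replicate 1 or 3 (0.0610 to 0.164) and without female WT replicate 1, 3 or 4 or female KO replicate 1 or 2 (0.0532 to 0.142). In the DESeq2 Wald test Thrb lost its call in males (adjusted p = 0.0597) and in females (0.0642). Thra, at -0.23 ± 0.081 in females, lost it without female WT replicate 1 or 2 or female KO replicate 3 (0.0729 to 0.120).

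Other carriers and pumps of organic anions, with the multidrug pumps, summed to 645 to 743 CPM in male WT and 572 to 596 in female WT. Of 24 genes, 10 were tested; 1 was higher and 1 lower in male KO (median -0.03), and 2 were higher and 1 lower in female KO (0.14). With 20.2% and 39.3% of all genes called, these counts were not above the background. The multidrug pump gene Abcb1b rose in both sexes, by 0.30 ± 0.078 and 0.40 ± 0.076 (edgeR adjusted p = 0.00490 and 7.17e-05). Its close copy Abcb1a fell in males, from 9.78 ± 1.18 to 5.39 ± 0.411 CPM (-0.87 ± 0.11, edgeR adjusted p = 4.61e-07). Whether reads were split between these 2 similar genes was not tested. The exporter Abcc1 rose by 0.24 ± 0.030 in females (edgeR adjusted p = 6.76e-08). Abcc5, another exporter, was lower by -0.14 ± 0.046 in females (edgeR adjusted p = 0.0142) and lost its call without female KO replicate 1 (0.0582).

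Scaffold proteins with PDZ domains hold apical transporters at the membrane. Of 8 such genes 6 were tested; 1 was higher and 2 lower in male KO (median 0.01) and 0 were called in female KO (edgeR quasi-likelihood test, median 0.05), where 20.2% and 39.3% of all genes were called. In males Slc9a3r1, or NHERF1, rose by 0.19 ± 0.032 (edgeR adjusted p = 2.06e-05). Pdzd2 and Slc9a3r2, or NHERF2, were called lower, by -0.38 ± 0.11 and -0.20 ± 0.067. The call of Pdzd2 was lost without male WT replicate 3 or male KO replicate 2 (0.0614 and 0.0843), and that of Slc9a3r2 without male WT replicate 1 or 4 or male KO replicate 2 or 3 (0.0508 to 0.193).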

How the data were processed

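RNA was isolated with Trizol and a column clean-up, and strand-specific mRNA libraries were made, per the labels' protocols. Reads had been aligned to mm10 by STAR 2.6.1 and assigned to genes by featureCounts, per the submitters' processing notes, and the authors deposited the resulting raw counts. The annotation and strand setting are not given in the sources used here. A deposited CPM table was not used.

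Tests used edgeR 4.0.16 in R 4.3.3: filterByExpr (minimum count 10, minimum total 15) left 13912 genes, with TMM scaling and 1 robust quasi-likelihood model over the 4 groups. Standard errors are the estimate over the square root of F. Adjustment was over all genes of each of 5 contrasts. The test was checked on simulated data with independent libraries, a check that cannot cover differences between pools. DESeq2 1.42.0, limma-voom (limma 3.58.1), other scalings and filters, fits restricted to 2 groups, a replicate block, and fits without 1 library in turn were the alternatives.

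Members and gene lists (4 pathway and 8 marker lists) were chosen with earlier results of these data known. Named genes are the Slco genes, the 3 coding genes on each side of Slco5a1, the 5 most like it, and from a list up to 3 called in each direction; a few genes outside this rule (Hpgd, Abcc4, Pla2g4a in females and the markers Cubn, Hnf4a, Slc34a1, Slc22a6, Slc22a8, Slc4a1 and Pvalb) were named after their values were seen. Some genes meeting the rule in marker lists are given by counts alone. A result that met the rule is not reported here. Sequences and lengths are from GENCODE M21 on GRCm38, the assembly of mm10. Coding sequences were aligned with Biopython 1.88.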

Additional observations from a re-analysis of the deposited data

Results flagged for a closer look

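The KO effect differed between the sexes, by the test of the difference itself, for Slco4a1 (-0.73 on the log2 scale, female minus male) and for Slco2a1 (0.17). In both genes the female effect was the larger of the 2. The test covers the spread between libraries of a pool, not between mice. A difference between the sexes therefore cannot be told apart from a difference between pools.

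Within groups of 4 libraries, 2 of 18 gene and group combinations had a library far from the others by Dixon's criterion, where chance gives about 1 in 20. These were Slco5a1 in male WT replicate 1, at 9.51 CPM below its 3 companions, and Slco4a1 in male WT replicate 2, at 25.7 CPM above its companions.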

How the results depend on the processing

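The log2 differences of Slco5a1, Slco4a1 and Slco2a1 between KO and WT kept their direction in every alternative run, and Slco4a1 and Slco2a1 stayed past the threshold in both sexes. Slco5a1 ranged from -2.49 to -2.45 in males and from -2.07 to -2.04 in females over other scalings, tests, filters and sample sets, and from -2.60 to -2.40 and -2.18 to -1.92 when a library was left out. Slco3a1 in females passed with library size as the only scaling (-0.105, edgeR adjusted p = 0.0193), and ran from -0.0984 to -0.0498 when a library was left out. With that scaling its female to male difference in KO was 0.12 (edgeR adjusted p = 0.0528), and 39.9% of called genes were higher in female KO, against 52.7%; in the difference between sexes 1273 genes were called lower, against 819. The cause was not tested.

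Replicate numbers did not pair the libraries: the correlation of deviations between same-numbered libraries was 0.0312 on average, and 4.76% of pairs exceeded 0.1. With the replicate block, Slco4a1 had -0.45 in males and -1.17 in females and Slco2a1 0.22 and 0.38. No call of the 5 listed genes changed, and Thrb lost its male call (adjusted p = 0.0501). Counts under 10 limit Slco2b1 and the untested Slco genes. With the stricter filter (5 CPM in 3 libraries), which tests fewer genes, 4 endothelial markers were lower in male KO, against 9, and 2 were higher in female KO, against 4.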
